A study of Mus musculus with 18 samples.

Results

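The subject is the difference between GFI and GFD medulloblastomas that arose in Ptch mice, read across all genes on 6 of the 18 arrays of the series. Medulloblastoma is a tumour of the cerebellum, and NG, GFD and GFI are tumour subtypes whose names the labels do not spell out. Arrays were taken by their labelled group, with GFI-Ptch (n = 4) set against GFD-Ptch (n = 2), where n counts arrays. The labels name the genotype as Ptch only, with no allele, strain, age or treatment. GFI-Ptch replicates 1 and 2 are labelled female and replicate 3 male, and both GFD-Ptch arrays are labelled male. GFI-Ptch replicate 4, called the transplanted tumour here, is labelled male, as having progressed from another tumour and as grown in a female host of the immunodeficient NSG strain. The comparison was therefore run with it and without it, though not every result is given both ways. NG-Ptch tumours (n = 4) are used for reference levels only. The labels do not say that replicates came from separate animals or tumours, so p-values measure the spread between these samples.

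Ptch1 is the Hedgehog receptor that holds Smo in check, and its loss lets granule neuron progenitors of the cerebellum go on dividing. Such tumours keep many features of these progenitors, while astrocytes, oligodendrocyte progenitors, microglia and blood vessels make up much of the rest of the tissue. Bulk RNA of a tumour adds these cells together. Fewer cells of a type and less RNA per cell therefore cannot be told apart in any result below.

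Values are log2 intensities, so a difference of 1 is a doubling. For 19938 genes, arrays correlated at 0.988 to 0.992 among GFI-Ptch replicates 1 to 3 and at 0.993 between the GFD-Ptch arrays. The transplanted tumour correlated at 0.970 to 0.975 with the other GFI-Ptch arrays and at 0.974 to 0.975 with GFD-Ptch. The labelled tissue was checked against 14 genes of granule neuron progenitors. Their mean level was 11.18 to 11.35 in the GFI-Ptch arrays and 11.53 and 11.49 in GFD-Ptch. The median difference of the list was -0.11 with all arrays and -0.09 without the transplanted tumour. With all arrays 4 of 14 lay below both GFD-Ptch arrays, against 9.48% of all genes, and none was called. Atoh1, the transcription factor that defines these progenitors, read 12.45, 12.24 and 12.81 in GFI-Ptch replicates 1 to 3, 12.01 in the transplanted tumour and 12.28 and 12.33 in GFD-Ptch. Genes of skeletal muscle averaged 9.99 in the transplanted tumour and 7.19 to 7.39 in the other 5 arrays, and the embryonic myosin Myh3 read 10.77 there against 5.87 to 6.07. The Y-linked gene Eif2s3y read 10.44 in GFI-Ptch replicate 3 and 9.98 and 10.12 in GFD-Ptch. It read at most 5.07 in GFI-Ptch replicates 1 and 2 and 4.98 in the transplanted tumour, which goes against the gender label of that array. The presence of Y-linked transcripts thus moved with the groups in 5 of 6 arrays, and its part in the results was tested only by the fits named below.

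With all 6 arrays, Vopp1 was the only gene that differed between the groups at an adjusted p under 0.05. This was 1 of 19938 genes, or 0.00502% (limma, spread estimated over all 18 arrays), while 9.79% had an unadjusted p under 0.05. Vopp1, first described as a gene amplified together with EGFR in human glioma, read 10.15, 10.25 and 10.43 in GFI-Ptch replicates 1 to 3 and 10.28 in the transplanted tumour. In GFD-Ptch it read 11.04 and 10.89. Every GFI-Ptch array lay below both GFD-Ptch arrays, and the NG-Ptch level of 10.28 ± 0.12 (SD, n = 4) was that of GFI-Ptch. Vopp1 fell by 0.69 in GFI-Ptch (SE 0.08, adjusted p = 0.00562). It remained called whichever of the 6 arrays was left out, and stood at -0.52 when the median level of each chromosome was subtracted, an alternative added after the data were seen. The call ended when the spread came from the 6 arrays (adjusted p = 0.842) or from the 10 Ptch arrays (0.269) alone, with the gender label (0.497) or the level of Y-linked genes (0.0704) as a model term, and with the replicate block (0.091). The fit with the gender label also left out the arrays of other groups whose gender is labelled ND, so its spread changed as well. It took the transplanted tumour as male, as labelled. Dropping single arrays moved the number of genes called. It became 14 when GFD-Ptch replicate 1 was left out, 3 for GFD-Ptch replicate 2, 2 for GFI-Ptch replicate 2, 15 for GFI-Ptch replicate 3 and 47 for the transplanted tumour.

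**Figure D1:**
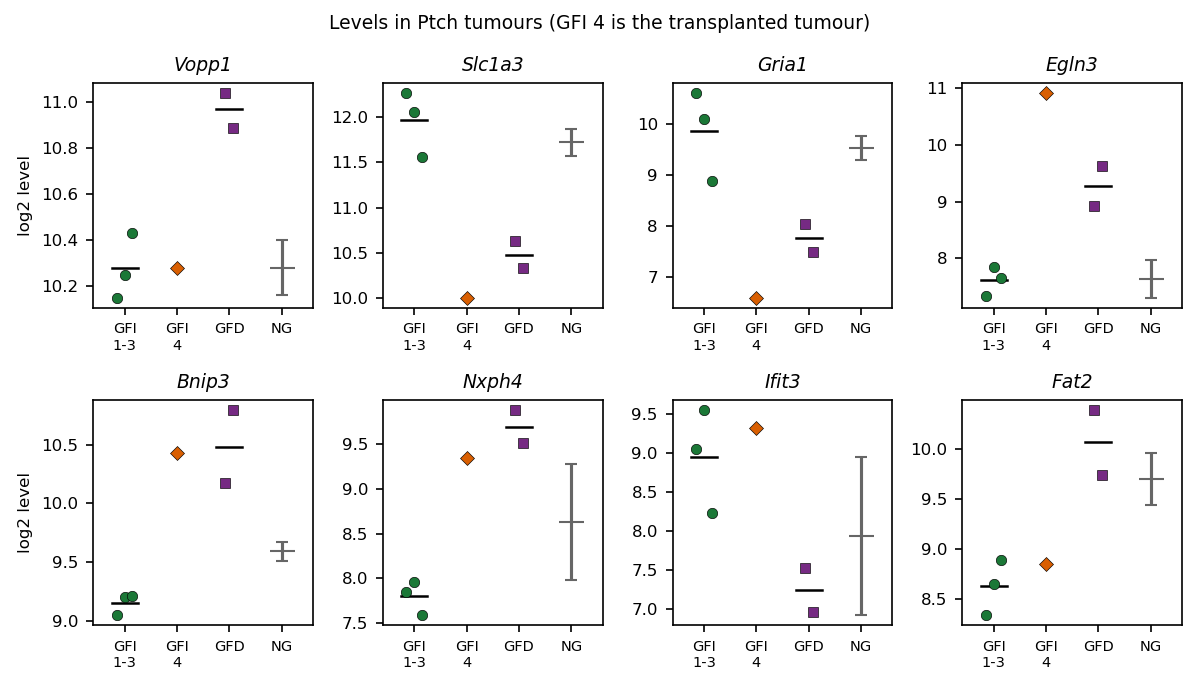
Log2 levels of 8 genes in Ptch tumours, with GFI-Ptch replicates 1 to 3 as circles, the transplanted tumour as a diamond, GFD-Ptch as squares, group means as black bars and NG-Ptch as mean with SD (n = 4). For Vopp1 the transplanted tumour, at 10.28, lies with the other GFI-Ptch arrays, while for Slc1a3, Gria1 and Egln3 it lies beyond the GFD-Ptch arrays and for Bnip3 between them.

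Without the transplanted tumour 47 genes were called, 0.236% of those tested, of which 19 rose in GFI-Ptch (n = 3) and 28 fell. The largest rises were in Gria1, Timp4 and Plpp3, and the largest falls in Nxph4, Aqp6 and Egln3. These calls also rest on the spread over all groups: 0 genes were called when the 5 arrays or the Ptch arrays alone gave it, although 2170 genes, or 10.9%, had an unadjusted p under 0.05 when the other groups gave it too. The count became 12 when GFI-Ptch replicate 1 was left out, 26 for GFI-Ptch replicate 2, 321 for GFI-Ptch replicate 3 and 16 for GFD-Ptch replicate 2. It was 1 with the gender label as a term, in a fit that also left out the arrays labelled ND. It was 13 with the level of Y-linked genes as a term and 31 with the replicate block. All 47 kept their direction in each of these fits, though only the fits with an added term could have changed it. None of the 47 overlapped between the groups, so leaving out 1 array or narrowing the spread could not. Of the 47, only Vopp1, Slc1a3, Rec8 and Mgat5b were called whichever of the 5 arrays was left out, and Mgat5b is named after its values were seen. The calls of the others, Gria1 among them, depended on single arrays.

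The largest rise was in Gria1, a subunit of AMPA-type glutamate receptors. It read 10.61, 10.11 and 8.89 in GFI-Ptch replicates 1 to 3 and 8.03 and 7.49 in GFD-Ptch, a difference of 2.11 (SE 0.36, adjusted p = 0.0292). In the transplanted tumour it read 6.59, below both GFD-Ptch arrays, and with that array the difference was 1.29 (adjusted p = 0.566). Slc1a3 encodes the glutamate transporter of radial glia and astrocytes. It read 12.26, 12.05 and 11.56 against 10.63 and 10.34 in GFD-Ptch, a difference of 1.47 (SE 0.16, adjusted p = 0.00207). The transplanted tumour, at 10.01, lay below both GFD-Ptch arrays, and with it the difference was 0.99 (adjusted p = 0.441). Replicate 3 was the lowest of replicates 1 to 3 for both genes, and those did not overlap with GFD-Ptch. It is also the GFI-Ptch array with Y-linked transcripts, and set alone against GFD-Ptch it differed by 1.13 for Gria1 and 1.08 for Slc1a3.

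Of the other genes that rose, Plpp3 is a member of the astrocyte list. This lipid phosphatase gene rose by 1.84 (adjusted p = 0.0214), the metalloproteinase inhibitor Timp4 by 1.91 and the glial receptor Gpr37l1 by 1.76. Acsbg1, an acyl-CoA synthetase of brain and steroid-forming tissue, rose by 1.38. The glutathione transferases Gstm1 and Gstm3 rose by 1.40 and 0.86, though the other probe set of Gstm3 gave 0.10. Tissue factor, F3, which starts blood coagulation, rose by 1.63, and the junction protein gene Jam2 by 1.37. Cmtm5 rose by 1.17. Pygm, the glycogen phosphorylase of muscle and astrocytes, rose by 1.02, and it was the gene among these rises with the lowest adjusted p when the transplanted tumour was kept (1.11, adjusted p = 0.093). It read 8.98 in that tumour, where the skeletal muscle list stood 2.71 above the GFD-Ptch mean, and the part of that signal in its level was not tested. The remaining rises that may be named were Ccbe1 at 1.01, Galnt16 at 0.72, Ppp2r5a at 0.71, the deubiquitinase Cyld at 0.58, Hddc3 at 0.53 and Hp1bp3 at 0.28. All of the 19 genes that rose had an NG-Ptch mean nearer to GFI-Ptch than to GFD-Ptch. The transplanted tumour lay nearer to GFD-Ptch at 17 of the 19 and nearer to GFI-Ptch at 2.

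Among the falls the largest was in Nxph4, a secreted ligand of neurexins, which read 7.85, 7.96 and 7.59 in GFI-Ptch replicates 1 to 3 and 9.88 and 9.52 in GFD-Ptch. The difference was -1.90 (SE 0.31, adjusted p = 0.0231), and the transplanted tumour, at 9.35, lay just under GFD-Ptch. With that tumour the difference was -1.51 (adjusted p = 0.271). Egln3, a prolyl hydroxylase that senses oxygen and is itself induced when oxygen is low, read 7.33, 7.85 and 7.66 against 8.92 and 9.63. It fell by 1.66 (adjusted p = 0.0292), while the transplanted tumour, at 10.91, exceeded every other array of the comparison. Bnip3, a mitochondrial protein gene induced by low oxygen, read 9.05, 9.20 and 9.21 against 10.17 and 10.79 and fell by 1.32 (SE 0.18, adjusted p = 0.00747). Its other probe set gave -1.07.

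The other falls were in genes of varied roles. The water channel gene Aqp6 fell by 1.69, the actin-binding Ablim3 by 1.40 and the sodium channel subunit Scnn1a by 0.94. Ascc2 fell by 1.31, and Rec8, a cohesin subunit of meiosis, by 0.97 (adjusted p = 0.00207). Syn2, which encodes a synaptic vesicle protein, fell by 0.90, the neuronal ubiquitin hydrolase Uchl1 by 0.84 and Reep2 by 0.75. Srgap3, a regulator of the neuronal cytoskeleton, fell by 0.98. The remaining falls within the naming rule lay between -0.60 and -0.81. They were in Pcnx2, Pfkl, Tmod4, Ttyh2, Rab11fip5, Pik3r3, Nol4l and Mvd. The transplanted tumour, not in this fit, read 10.48 for Aqp6, 8.78 for Ablim3 and 10.10 for Rec8, above both GFD-Ptch arrays. With it Aqp6 differed by -0.90 and Rec8 by -0.55 (limma, adjusted p = 0.656 and 0.607). Of all 28 falls, that tumour lay nearer to GFD-Ptch at 21 and nearer to GFI-Ptch at 7.

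The transplanted tumour was not used in that fit, and its levels at the 47 genes were set against both groups. It lay nearer to the GFD-Ptch mean than to the mean of the other GFI-Ptch arrays at 38 genes and nearer to GFI-Ptch at 9. At 22 genes it lay at or past the GFD-Ptch mean. On a scale where GFD-Ptch is 0 and GFI-Ptch replicates 1 to 3 are 1, its median position was 0.02. NG-Ptch tumours had a median position of 0.74 on the same scale and lay nearer to GFI-Ptch at 40 genes. With the transplanted tumour included, 18 of the 47 genes still had no overlap between the groups. Vopp1, Pygm, Srgap3, Pcnx2 and Nol4l were among the 9 at which it lay nearer to GFI-Ptch, and for Pygm, a muscle phosphorylase, the skeletal muscle signal of that tumour stands beside this.

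**Figure D2:**
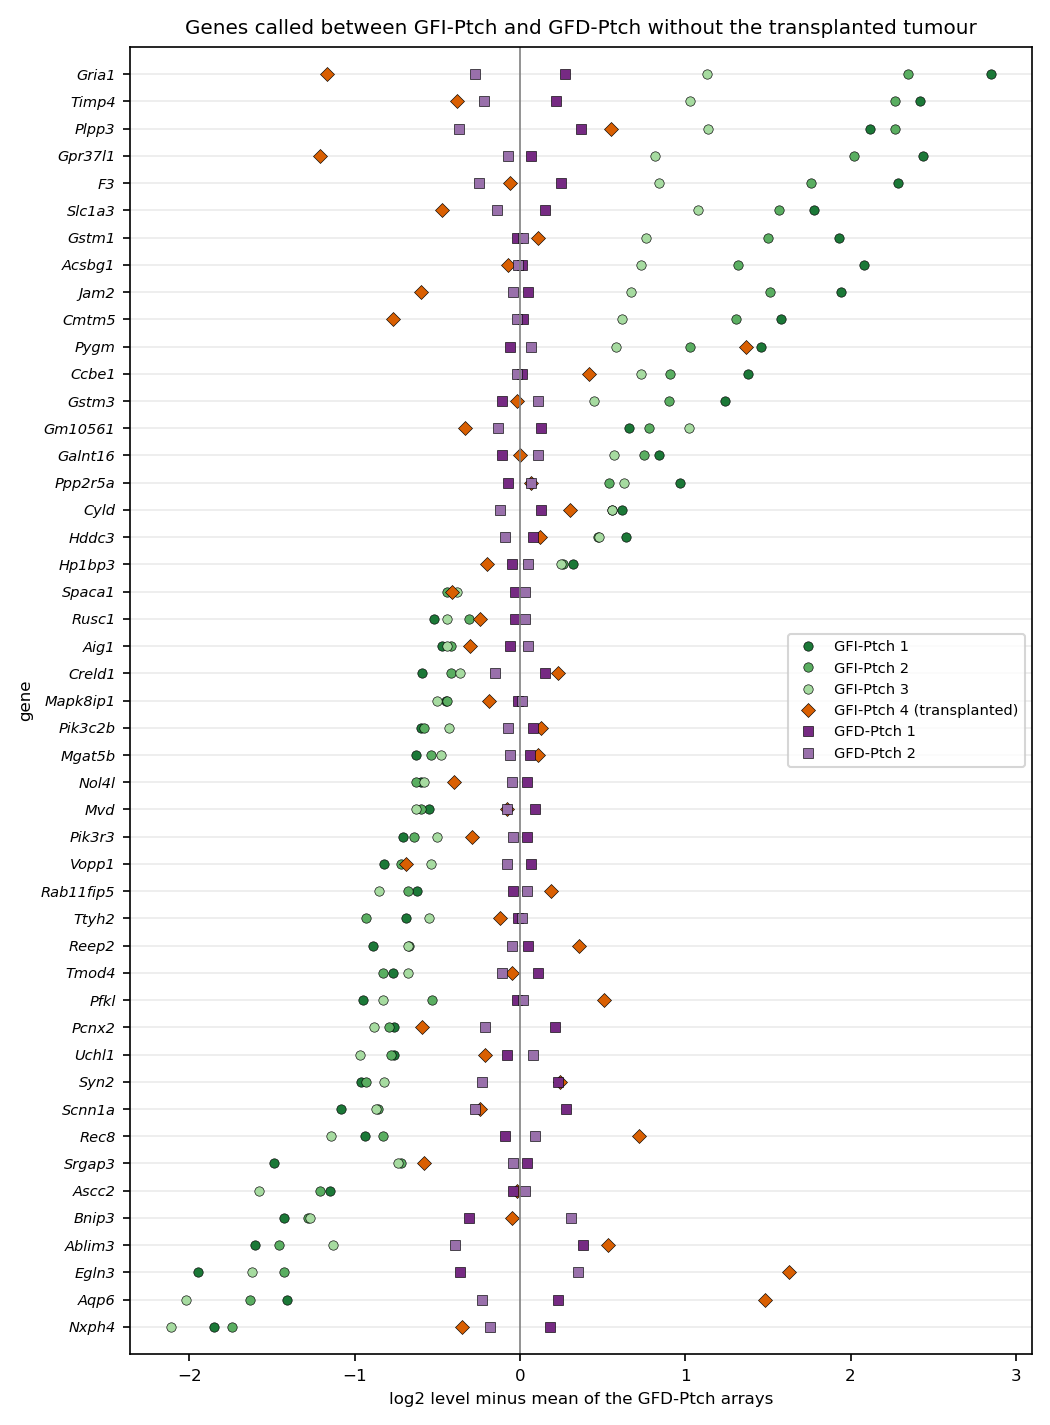
Log2 level minus the GFD-Ptch mean for the 47 genes called without the transplanted tumour, with 1 row per gene and 1 symbol per array. GFI-Ptch replicates 1 to 3 are circles, GFD-Ptch arrays squares and the transplanted tumour a diamond, which falls nearer to the GFD-Ptch mean at 38 of the 47 genes. The genes were chosen on the circles and squares, so only the diamonds are independent of the choice.

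Gene lists are described by counts and medians, with no test of a list. Over all genes the median difference was -0.02 with or without the transplanted tumour, and the difference was above 0 at 43.2% and 44% of genes. Every GFI-Ptch array lay above both GFD-Ptch arrays at 6.98% of genes and below both at 9.48%. Without the transplanted tumour these shares were 12.2% and 14.5%.

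Astrocyte genes lay higher in GFI-Ptch. All 17 measured members were above 0, with a median of 0.49 with all arrays and 0.72 without the transplanted tumour. In the latter comparison 11 of 17 lay above both GFD-Ptch arrays and 1, Plpp3, was called, whereas with all arrays 3 of 17 were apart. The arrays themselves were far from equal, and the median with all arrays was 0.27 when GFI-Ptch replicate 1 was left out. Set against the GFD-Ptch mean, the list's median stood at 1.55 in GFI-Ptch replicate 1, 0.92 in replicate 2, 0.24 in replicate 3 and -0.19 in the transplanted tumour. Aldoc, a glycolytic enzyme of astrocytes, read 11.40, 11.80 and 9.14 in replicates 1 to 3, 8.28 in the transplanted tumour and 8.77 and 8.68 in GFD-Ptch, so replicate 3 was much closer to GFD-Ptch than its fellows. The water channel gene Aqp4 differed by 1.59 without the transplanted tumour (adjusted p = 0.0653), Clu by 1.57 and Sparcl1 by 1.24. Gfap, the intermediate filament of astrocytes, overlapped between the groups, at 10.75, 10.46 and 9.63 against 10.17 and 9.24.

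Oligodendrocyte progenitor genes were also higher in GFI-Ptch replicates 1 and 2 than in the other arrays. Their median stood at 0.89 and 1.12 in GFI-Ptch replicates 1 and 2, 0.06 in replicate 3 and -0.76 in the transplanted tumour. Without that tumour 11 of 12 members were above 0, 5 lay above both GFD-Ptch arrays and the median was 0.74, against 6 of 12 above 0 and a median of 0.32 with it. The latter moved to 0.17 when GFI-Ptch replicate 1 was left out and to 0.03 for replicate 2. Ptprz1, a receptor phosphatase of glial progenitors, read 10.34, 10.88 and 9.28 in replicates 1 to 3, 6.87 in the transplanted tumour and 8.77 and 8.13 in GFD-Ptch. It differed by 1.72 without the transplanted tumour (adjusted p = 0.109) and Scrg1 by 1.70 (0.0653). Olig2, a lineage factor of these cells that is also present in tumour progenitors, did not follow them, at 9.57, 9.85 and 9.37 against 10.01 and 9.81. Among genes of neural stem cells Sox2 split the GFI-Ptch arrays, at 9.26 and 8.98 in replicates 1 and 2, 7.47 in replicate 3 and 6.95 in the transplanted tumour, beside 7.58 and 7.72 in GFD-Ptch.

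Microglia and macrophage genes lay higher in GFI-Ptch too. In GFI-Ptch replicates 1 to 3 all 21 measured members were above 0 and 15 lay above both GFD-Ptch arrays, with a median of 0.59. With all arrays 20 were above 0 and 6 were apart, with a median of 0.43. Leaving out GFD-Ptch replicate 2 moved these medians to 0.26 and 0.17, and leaving out GFI-Ptch replicate 1 moved the second to 0.28. None of them was called by limma, and 13 and 7 had an unadjusted p under 0.05, which 5.18% and 4.23% of all genes had in that direction. C1qa, a chain of the first complement component, read 10.50, 10.03 and 9.59 in replicates 1 to 3, 9.40 in the transplanted tumour and 9.29 and 8.66 in GFD-Ptch. It differed by 1.07 without the transplanted tumour (adjusted p = 0.0844), the protease Ctss by 0.85 and the growth factor receptor Csf1r by 0.75. Lymphocyte genes, by contrast, had a mean level of 6.36 to 6.70 in the 6 arrays, close to the arrays' lower quartiles of 6.238 to 6.382.

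**Figure D3:**
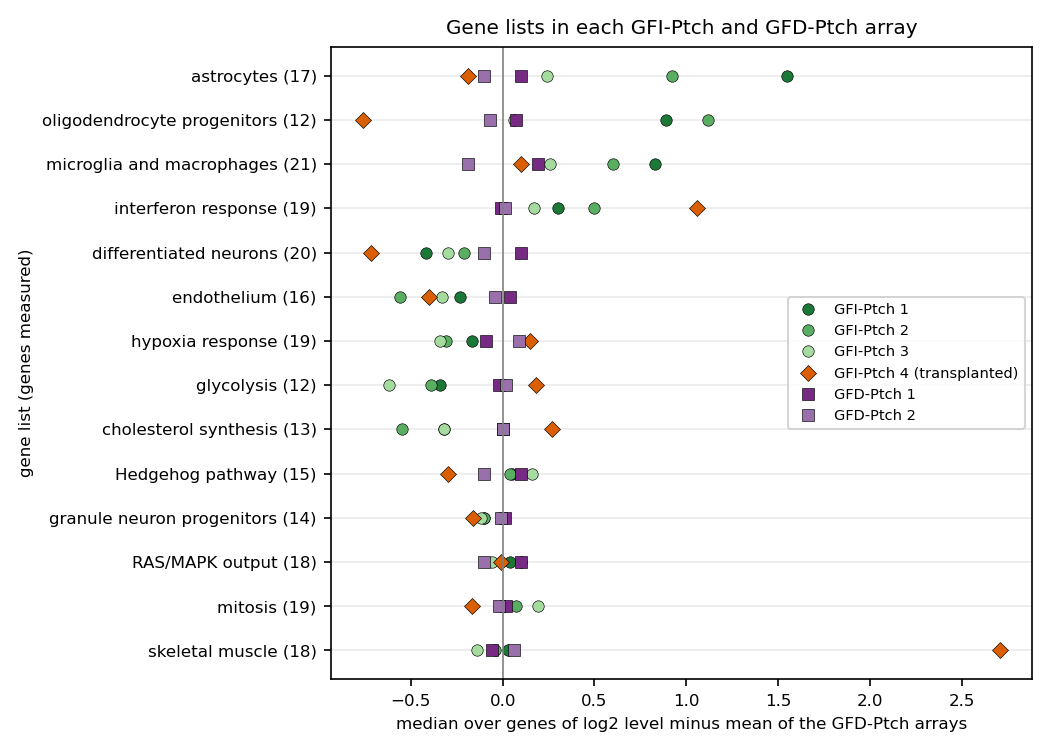
Median log2 level of the genes of 14 lists in each array, minus the mean of the GFD-Ptch arrays, with the number of genes measured in brackets. Astrocyte and oligodendrocyte progenitor genes spread the GFI-Ptch arrays from 1.55 and 1.12 at the top to -0.19 and -0.76 in the transplanted tumour, while all 4 GFI-Ptch arrays lie below 0 for differentiated neurons and endothelium and above 0 for the interferon response.

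Genes of differentiated neurons lay lower in GFI-Ptch, and here the transplanted tumour went with its group. Of 20 measured members 18 were below 0, with a median of -0.42 with all arrays and -0.38 without the transplanted tumour, and 8 and 9 of them lay below both GFD-Ptch arrays. When GFD-Ptch replicate 1 was left out, the median moved to -0.21 with all GFI-Ptch arrays and to -0.10 without the transplanted tumour. Fat2, a giant cadherin of granule neurons, read 8.34, 8.65 and 8.89 in replicates 1 to 3, 8.85 in the transplanted tumour and 10.39 and 9.74 in GFD-Ptch, a difference of -1.38 (SE 0.35, adjusted p = 0.238). The kinase gene Camk4 differed by -1.30, the vesicular glutamate transporter Slc17a7 by -1.07 and Cbln1, a synapse organiser secreted by granule neurons, by -0.75 (adjusted p = 0.211). None of the 20 was called by limma in either comparison, and 5 had an unadjusted p under 0.05 in each, a share to be read against 5.56% and 5.7% of all genes. Some genes outside the list were named because they are among the 15 largest differences with no overlap, so their arrangement was fixed by that choice. The calcium-binding protein gene Calb2 read 10.11, 8.27, 9.61 and 9.38 in GFI-Ptch against 11.15 and 10.82, and the potassium channel genes Kcnd2 and Kcna1 differed by -1.40 and -1.30. Il16 differed by -1.55 and the synaptic adhesion gene Lrrtm3 by -1.58, the latter at 6.47 in the transplanted tumour against 8.93 to 9.24 in the other GFI-Ptch arrays.

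Endothelial genes also lay lower in all GFI-Ptch arrays. The list's median stood between -0.56 and -0.23 in the 4 arrays, with 14 of 16 members below 0, 9 of 16 below both GFD-Ptch arrays. None was called by limma, and 8 had an unadjusted p under 0.05, which 5.56% of all genes had in that direction. Without the transplanted tumour 12 of 16 lay below both GFD-Ptch arrays, against 14.5% of all genes. Cdh5, the cadherin of endothelial junctions, read 7.90, 7.77, 8.24 and 8.46 against 8.89 and 8.96 (-0.83, SE 0.27, adjusted p = 0.361), and the growth factor receptor Kdr differed by -0.57. The lists of pericytes and fibroblasts and of basement membrane and matrix were near 0. Their medians were -0.08 and -0.10 with all arrays and -0.03 and -0.09 without the transplanted tumour. Acta2, the actin of smooth muscle, overlapped only through the transplanted tumour, at 8.34, 8.55 and 8.54 in replicates 1 to 3, 11.18 in the transplanted tumour and 9.61 and 9.75 in GFD-Ptch.

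The hypoxia list and the glycolysis list split the GFI-Ptch arrays by the transplanted tumour. Without it 13 of 19 hypoxia genes lay below both GFD-Ptch arrays, with a median of -0.28, and Egln3 and Bnip3 were called. With it 5 of 19 lay below, with a median of -0.22. Of 12 glycolytic genes 9 lay below GFD-Ptch without the transplanted tumour and 1 with it, with medians of -0.46 and -0.34. Leaving out GFD-Ptch replicate 2 moved the hypoxia median to -0.18 without the transplanted tumour and to -0.11 with it, and the glycolysis median with it to -0.21. Pfkl, the liver form of phosphofructokinase, read 8.36, 8.78 and 8.48 in replicates 1 to 3 and 9.29 and 9.33 in GFD-Ptch and fell by 0.77 (SE 0.10, adjusted p = 0.00555), while the transplanted tumour stood at 9.82. Vegfa, the vessel growth factor, differed by -0.62 (adjusted p = 0.218) and Tpi1 by -0.84. In the 6 arrays the mean level of the hypoxia list was 8.66 to 8.82 in GFI-Ptch replicates 1 to 3, 8.96 and 9.24 in GFD-Ptch and 9.37 in the transplanted tumour. NG-Ptch arrays lay at 8.70 to 8.79, among the first of these.

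The promoters of both called hypoxia genes are shown because they carry the letters that hypoxia-inducible factors bind. Capitals mark each match to ACGTG or GCGTG on either strand in the 250 bases before the start, from RefSeq on build GRCm38.p6. A CACGTG holds a match on each strand. Egln3 lies at chr12:54203875-54204124 and Bnip3 at chr7:138909507-138909756, both on the minus strand.
Egln3: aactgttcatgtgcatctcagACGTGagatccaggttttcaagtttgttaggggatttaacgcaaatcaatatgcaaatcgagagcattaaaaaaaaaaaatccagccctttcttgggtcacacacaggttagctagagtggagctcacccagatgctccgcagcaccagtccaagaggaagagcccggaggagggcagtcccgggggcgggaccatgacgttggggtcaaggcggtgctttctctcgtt
Bnip3: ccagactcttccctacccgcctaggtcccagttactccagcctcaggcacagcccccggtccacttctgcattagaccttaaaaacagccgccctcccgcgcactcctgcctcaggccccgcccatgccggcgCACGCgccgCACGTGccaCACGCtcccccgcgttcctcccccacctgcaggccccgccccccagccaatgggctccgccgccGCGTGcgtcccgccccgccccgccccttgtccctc
Egln3 holds 1 match and Bnip3 5, counted over both strands. Of 20 listed hypoxia genes 17 matched the promoter table by symbol, and all 17 hold a match in at least 1 of their promoters. Counted over promoters the share was 82.6% of 23, against 38.6% of all 32851 promoters in the table. A match is a description of letters, and it shows no binding.

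Genes of cholesterol synthesis lay lower in GFI-Ptch replicates 1 to 3. All 13 measured members were below 0 without the transplanted tumour, 12 of them below both GFD-Ptch arrays, with a median of -0.38. Mvd, the decarboxylase of the mevalonate pathway, read 8.99, 8.94 and 8.91 against 9.63 and 9.46 and fell by 0.60 (SE 0.10, adjusted p = 0.0264). Srebf2, the transcription factor that drives the pathway, differed by -0.62 (adjusted p = 0.109), Dhcr7 by -0.51, Cyp51 by -0.51 and Fdps by -0.48. In the transplanted tumour the list stood 0.27 above the GFD-Ptch mean. With it no member was apart, 11 of 13 were below 0 and the median was -0.22.

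The interferon response lay higher in GFI-Ptch, and most so in the transplanted tumour. Its median over 19 measured genes stood at 0.30, 0.50 and 0.17 in replicates 1 to 3 and at 1.06 in the transplanted tumour, relative to the GFD-Ptch mean. With all arrays 17 of 19 were above 0 and 12 lay above both GFD-Ptch arrays, with a median of 0.57. In the other 3 arrays 13 of 19 were apart in that direction, with a median of 0.35. None was called by limma in either comparison. In that direction 10 and 7 had an unadjusted p under 0.05, which 4.23% and 5.18% of all genes had. Ifit3, an antiviral protein gene, read 9.06, 9.55 and 8.24 in replicates 1 to 3, 9.32 in the transplanted tumour and 7.53 and 6.96 in GFD-Ptch. The difference was 1.79 with all arrays (SE 0.47, adjusted p = 0.264), and NG-Ptch tumours stood at 7.94 ± 1.01 (SD, n = 4), between the group means. Usp18, which limits interferon signalling, read 8.15, 8.35 and 7.85, then 10.44 in the transplanted tumour, against 7.52 and 7.42. Ifit1 read 7.48, 7.78 and 7.37, then 9.42, against 6.96 and 6.83. Cxcl10, a chemokine induced by interferon and held in the chemokine list, differed by 0.92 with all arrays (adjusted p = 0.359). Genes of MHC class I had a median of 0.03 and none of 7 was apart.

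Interferon-stimulated genes share a response element, and its core is marked in capitals in the promoters of Ifit3 and Ifit1, which lay higher in every GFI-Ptch array. The motif searched was GAAA, any 2 bases and GAAA again, on either strand in the 250 bases before the start, from RefSeq on build GRCm38.p6. Ifit3 lies at chr19:34583279-34583528 and Ifit1 at chr19:34640639-34640888, both on the plus strand.
Ifit3: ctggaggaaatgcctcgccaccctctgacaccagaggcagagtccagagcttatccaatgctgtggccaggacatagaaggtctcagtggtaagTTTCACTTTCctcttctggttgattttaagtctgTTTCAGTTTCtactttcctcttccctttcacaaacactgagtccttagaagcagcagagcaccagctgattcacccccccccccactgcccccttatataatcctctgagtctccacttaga
Ifit1: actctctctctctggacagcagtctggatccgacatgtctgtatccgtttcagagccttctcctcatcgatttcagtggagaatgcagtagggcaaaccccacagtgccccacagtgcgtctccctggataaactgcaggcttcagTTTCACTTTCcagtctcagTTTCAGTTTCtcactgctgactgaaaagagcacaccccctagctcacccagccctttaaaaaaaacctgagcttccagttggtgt
Both hold 2 matches, each read on the minus strand. Of 24 listed interferon genes 17 matched the promoter table, with 20 promoters, of which 50% hold a match, against 2.98% of all promoters.

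Hedgehog pathway genes showed no common shift with all arrays, where 7 of 15 were above 0, and none was called by limma in either comparison. Without the transplanted tumour 11 of 15 were above 0, against 44% of all genes. Of these 15 genes 3 then lay above both GFD-Ptch arrays and 1 below both, against 12.2% and 14.5% of all genes. With all arrays 1 of 15 had an unadjusted p under 0.05, and 2 without the transplanted tumour. Of all genes 9.79% and 10.9% had one. The list's median difference was -0.01 with all arrays and 0.09 without the transplanted tumour, and its sign changed under 6 of 18 alternatives and 1 of 17. Hhip, a Hedgehog target that binds the ligand, was the member farthest from 0, at 9.84, 10.13 and 10.13 in replicates 1 to 3, 8.71 in the transplanted tumour and 9.16 and 8.74 in GFD-Ptch. It differed by 1.08 without the transplanted tumour (SE 0.24, adjusted p = 0.101). Gli1, the transcription factor used as a read-out of the pathway, differed by 0.33 without that tumour, and Ptch1 by 0.12. Smo, the signal transducer of the pathway, lay on the other side, at 11.41, 11.12, 11.56 and 11.32 in GFI-Ptch against 11.67 and 11.59 (-0.27, adjusted p = 0.579). Smo lies on chromosome 6, whose genes were shifted together in some arrays, as given below. The transplanted tumour had the lowest level of Gli1 (9.76), Ptch1 (10.62) and Mycn (11.24) among the 6 arrays. Genes that report RAS and MAPK activity had a median of 0.04 with all arrays and 0.02 without the transplanted tumour, with 3 and 4 alternatives of the other sign. Among them Dusp6 read 9.81, 9.41, 9.55 and 9.81 in GFI-Ptch against 9.57 and 9.15, so the groups overlapped, and Etv5 and Spry2 differed by 0.08 and 0.17. Il1rap differed by 0.59 and Dusp5 by -0.52, and neither was called (adjusted p = 0.306 and 0.438). Fgfr2, a growth factor receptor, lay above GFD-Ptch in replicates 1 to 3, at 9.34, 9.02 and 8.15 against 7.79 and 7.26, and differed by 1.31 (adjusted p = 0.0735). The S phase and mitosis lists had medians of 0.10 and 0.05 with all arrays and 0.12 and 0.11 without the transplanted tumour. With all arrays 2 of 21 and 4 of 19 genes lay above both GFD-Ptch arrays, against 6.98% of all genes. Without that tumour 9 of 21 and 7 of 19 did, against 12.2%, while 2 mitosis genes lay below both. None of these genes was called in either comparison.

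Beyond the lists, 57 genes differed by at least 1 log2 unit without overlap between the 4 GFI-Ptch arrays and both GFD-Ptch arrays, 26 higher (0.13% of genes) and 31 lower (0.155%). When that tumour was left out, 82 were higher (0.411%) and 45 lower (0.226%). The largest difference among those apart was in Bmp5, a growth factor of the bone morphogenetic protein family. It read 11.83, 7.04, 11.65 and 10.96 in GFI-Ptch and 6.71 and 6.95 in GFD-Ptch, so that replicate 2 lay just above GFD-Ptch and far from the other 3 (difference 3.54, SE 1.22, adjusted p = 0.393). Scd1, a desaturase of fatty acid synthesis, differed by 1.88, the small heat shock protein gene Cryab by 1.58, the metallothionein gene Mt2 by 1.48 and the glycerol phosphate dehydrogenase Gpd1 by 1.28. For Scd1 and Cryab the lowest GFI-Ptch array was replicate 3, at 7.63 and 8.88, close to the GFD-Ptch levels of at most 7.36 and 8.74. None of these was called.

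Genes of whole chromosomes were shifted together in some arrays, a description chosen after the data were seen. For the genes with a mean of at least 8 over all arrays, the level relative to the NG-Ptch mean was taken, with each array's median set to 0. Chromosomes were assigned through RefSeq on GRCm38. The 539 genes of chromosome 6 had a median of 0.29 and 0.17 in GFD-Ptch replicates 1 and 2 and of 0.17 in GFI-Ptch replicate 3. They stood at -0.01, -0.06 and -0.02 in the other GFI-Ptch arrays, where NG-Ptch arrays spanned -0.04 to 0.08. Vopp1 lies on this chromosome, and its level in GFI-Ptch was highest in replicate 3. The called falls Syn2, Srgap3, Scnn1a and Rab11fip5 lie there too, as do Smo, Tpi1, Kcnd2 and Kcna1, which were lower in GFI-Ptch. Timp4, Ptprz1 and Usp18, which were higher, are also on chromosome 6. With each chromosome's median subtracted per array, Vopp1 was still called with all arrays (-0.52, limma, adjusted p = 0.00701). Beyond that subtraction, the part of the chromosome's shift in the differences of these genes was not tested. Chromosome 14, with 385 genes, stood at 0.26 in GFI-Ptch replicate 1, 0.15 in replicate 2 and 0.06 in the transplanted tumour, and between -0.04 and 0.01 in replicate 3 and both GFD-Ptch arrays. Of its genes 25.5% lay above GFD-Ptch in every GFI-Ptch array, against 10.9% of all genes at this level. On chromosome 6, 12.2% lay below in every GFI-Ptch array and 1.3% above, against 7.17% and 10.9%. High shares were not limited to these chromosomes. On chromosome 8, with medians of -0.04 to 0.00 in the 6 arrays, 12.1% lay below, and on chromosome X 22% lay above.

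In the transplanted tumour more chromosomes were shifted. Chromosome 18 stood at 0.31, chromosome 17 at 0.30, chromosome X at 0.25 and chromosome 9 at 0.14, and chromosome 13, which carries Ptch1, at -0.23. The other 5 arrays lay between -0.03 and 0.05 on these chromosomes. NG-Ptch arrays spanned -0.12 to 0.07 on chromosome 13 and -0.07 to 0.05 on chromosome X. On chromosomes 9, 17 and 18 they lay between -0.03 and 0.02. After each chromosome's median was subtracted per array, 2 genes were called with all arrays and 48 without the transplanted tumour, of which 40 were among the 47. DNA copy number was not measured, and its part in these shifts was not tested.

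**Figure D4:**
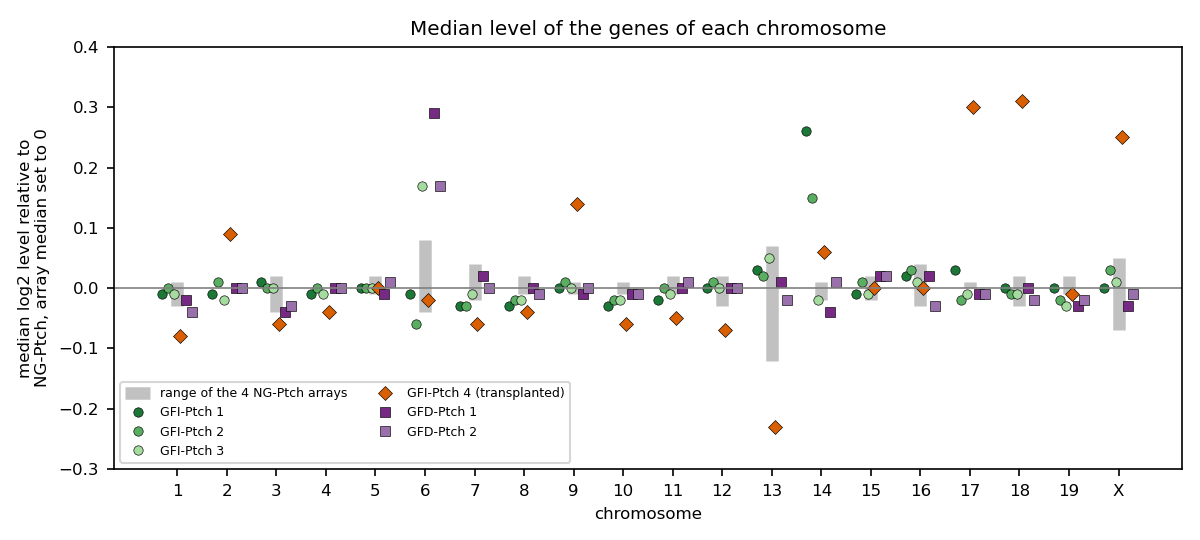
Median log2 level of the genes of each chromosome relative to the NG-Ptch mean, for genes with a mean of at least 8 and with each array's own median set to 0. Symbols are the 6 arrays and grey bars the range of the 4 NG-Ptch arrays. Both GFD-Ptch arrays and GFI-Ptch replicate 3 stand above on chromosome 6, GFI-Ptch replicates 1 and 2 on chromosome 14, and the transplanted tumour on chromosomes 9, 17, 18 and X.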

How the data were processed

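The values are log2 intensities deposited by the authors, 1 column per array, from Affymetrix mouse Gene ST 1.0 arrays. Partek 6.6 is named per the submitters' processing notes, while background correction, scaling and probe set summary are not given in the sources used here. The deposited values were used unchanged, between 4.22 and 14.32, and the number of arrays limits the precision. Of 35556 probe sets, 21789 had 1 gene symbol in the platform annotation, 1621 several and 12146 none. Each of 19938 genes was represented by its brightest probe set, judged by the mean of the 18 arrays.

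All 18 arrays were fitted as 5 groups in limma 3.58.1 (R 4.3.3), and GFI-Ptch minus GFD-Ptch was tested with its moderated, two-sided test, with and without the transplanted tumour. P-values were adjusted over all genes by Benjamini-Hochberg, and genes were called at an adjusted p under 0.05. The fit was tested on simulated data. Genes named are those called with all arrays, the 20 largest rises and falls called without the transplanted tumour, the 15 largest differences without overlap in each direction, up to 5 members per list and a short list of Hedgehog, growth factor and marker genes. Sex-linked genes and unnamed loci were left out of the ranked parts. The comparison, its genes and the 42 gene lists (573 different genes measured) were chosen with earlier results of these data known. The alternatives were other spreads, scalings, filters, probe set means, left-out arrays, a replicate block, the gender label and the Y-linked level. The fit with the gender label used only arrays labelled male or female. The Y-linked level was the mean of Eif2s3y, Kdm5d and Uty, since Ddx3y had no probe set with 1 symbol. Chromosome medians and chromosome centring were chosen after the data were seen. Promoters come from RefSeq tables and were matched by symbol.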

Additional observations from a re-analysis of the deposited data

Results flagged for a closer look

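Of 131 sets of 4 arrays, 22 held 1 array far from the other 3 by Dixon's ratio, where chance flags about 1 in 20 groups. Some sets are genes called in the fit without the transplanted tumour, and the sets share arrays. The count of 22 can therefore not be read against that rate. In all but 2 of the 22, given last, the array far from the others was the transplanted tumour. Its log2 levels stood apart for Myh3 at 10.77, Egln3 at 10.91, Bnip3 at 10.43, Rec8 at 10.10, Hp1bp3 at 11.36, Syn2 at 11.29, Mvd at 9.46, Kcnd2 at 7.06, Lrrtm3 at 6.47, Acta2 at 11.18, Tpi1 at 11.74 and Etv5 at 9.46. The skeletal muscle list stood at 2.71 there, as the median log2 difference from GFD-Ptch. Its chromosome medians relative to NG-Ptch stood apart for chromosomes 3 at -0.06, 9 at 0.14, 12 at -0.07, 13 at -0.23, 17 at 0.30, 18 at 0.31 and X at 0.25. GFI-Ptch replicate 3 stood apart for Eif2s3y, at 10.44, as the GFI-Ptch array with Y-linked transcripts. NG-Ptch replicate 4 stood apart for Gria1, at 9.18.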

How the results depend on the processing

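With all arrays 1 gene was called. The count was 4 with quantile normalization, 26 with array weights, 2 with a trended and robust variance and 2 with chromosome centring. It was 0 with the spread of the GFI-Ptch and GFD-Ptch arrays or of the Ptch arrays alone, with the gender label, with the Y-linked level and with the replicate block. Leaving out 1 array gave 1 to 47. Without the transplanted tumour 47 genes were called, and the count was 74 after a filter on dim genes, 130 with array weights, 1 with the gender label, 13 with the Y-linked level, 31 with the replicate block and 0 with either narrower spread. Leaving out 1 of its 5 arrays gave 12 to 321. The cause of these shifts was not tested. The genes apart by at least 1 log2 unit numbered 57, and 57 to 139 with 1 array left out. Without the transplanted tumour they numbered 127, and 97 to 223. Every called gene that was tested kept its direction under all of these settings. Those genes had no overlap between the groups, so leaving out an array or narrowing the spread could not have changed it. The deviations of same-numbered arrays correlated at -0.204 for replicates 1 and -0.067 for replicates 2. The 2 GFD-Ptch arrays deviate from their mean as mirror images. These values therefore cannot decide whether same-numbered arrays share more than a number. With 2 GFD-Ptch arrays, the calls rest on a spread borrowed from the other groups.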
